A study of Mus musculus with 12 samples.

Results

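Among 12 single cultured cardiac progenitor cells (CPCs), 5 cells with few detected genes formed a low set and 7 cells with more formed a high set, parted in the gap between 10181 and 11216 genes. A gene was detected when it had at least 1 count. Cells 7, 8, 10, 11 and 12 made up the low set, and cells 1 to 6 and 9 the high set. The sets were therefore selected on the number of detected genes. They are not groups of the study, and every value below is a description with no test between them.

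CPCs are c-Kit+ cells, depleted of blood lineages, taken from the hearts of female FVB mice of 12 weeks. They were grown in culture for 5 passages, and the study used them to ask how culture changes the transcriptome of single cells. All 12 cells share this origin, with no genetic modification named, and a medium holding LIF at 10 ng/ml, bFGF at 10 ng/ml and EGF at 20 ng/ml. Hearts were pooled and the labels tie no cell to an animal or a culture, so the 12 cells count as 1 sample. Single cells were picked by mouth pipette after trypsin, and full-length cDNA was made with the Smart-Seq v4 kit. Kit, the receptor used to select the cells from the heart, had 21 counts in cell 10 and 0 counts in each of the other 11 cells.

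How many genes a single-cell library detects depends on the messenger RNA in the cell, on the share of molecules turned into cDNA, and on the number of reads. A transcript present in few copies can be lost before amplification, while transcripts of ribosomal proteins or the cytoskeleton are present in many copies. Genes for transcription factors, receptors and repair enzymes are usually transcribed at low levels. In a growing culture, genes for DNA replication and mitosis also come and go with the cell cycle. In 1 cell, fewer messages per cell and a lower yield of cDNA cannot be told apart.

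The low set had 10069, 10022, 10057, 10181 and 10036 genes in cells 7, 8, 10, 11 and 12. The high set had 11950, 11702, 11216, 11692, 11515 and 11876 genes in cells 1 to 6 and 11329 in cell 9. The members nearest the dividing line were cell 11, with 10181 genes, and cell 3, with 11216 genes, so no cell lay between them. The 5 low cells spread over a narrower range of gene numbers than the 7 high cells.

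The deeper libraries held fewer genes. Total counts were 5258541 to 5690184 in the low set and 3453708 to 5025517 in the high set, and the ranges did not overlap. Each cell was therefore reduced to 3453708 counts, the total of cell 1, by computing the number of genes expected when counts are drawn without replacement. At this depth the low cells held 9931 to 10088 genes with a median of 9982, and the high cells 11188 to 11950 with a median of 11635. The difference of medians was 1653 genes at equal depth and 1635 genes as deposited. Mitochondrially encoded genes took 1.13 to 1.59% of the counts in the low set and 1.02 to 2.77% in the high set. The 50 most abundant genes took 15.7 to 20.1% and 13.6 to 21.8%, so the share held by a few dominant genes overlapped between the sets. Leaving out those 50 genes in each cell gave a difference of 1650 genes at equal depth. All 5 low cells carry numbers of 7 or above in their titles, and the labels do not say whether these numbers follow a plate, a day or a batch.

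The gap opened with depth. At 10000 counts per cell the low set held 3544 to 3624 genes and the high set 3355 to 3905, and the ranges overlapped. At 100000 counts the ranges still met, because cell 3 had 7922 genes and cell 11 had 7930. Without cell 3 the lowest high cell was at 8527 genes at that depth. At 300000 counts the highest low cell had 9110 genes and the lowest high cell 9562. Between 1000000 and 3453708 counts cell 8 of the low set gained genes only from 9615 to 9931, and cell 1 of the high set from 11313 to 11950. The plot of genes against depth shows low curves that lie close together and end at 9931 to 10088 genes.

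**Figure D1:**
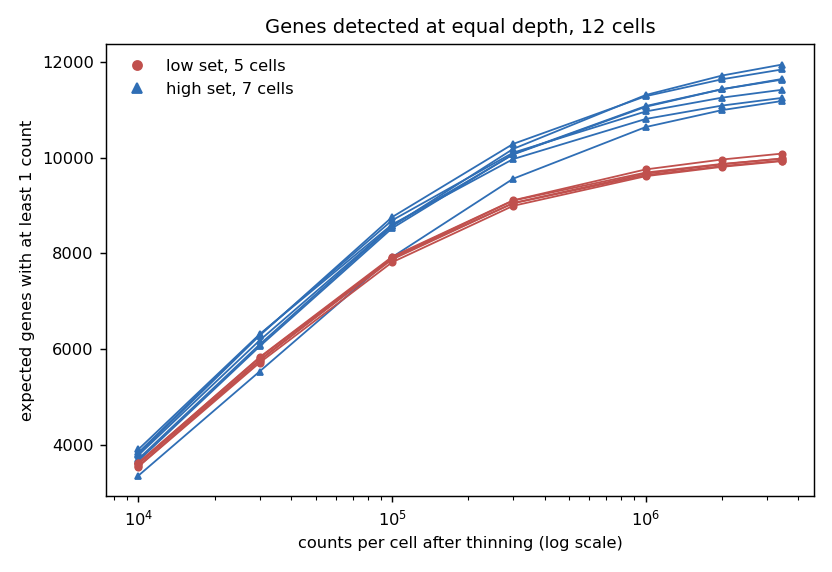
Expected number of genes with at least 1 count (vertical axis) against counts per cell after thinning (horizontal axis, log scale) for 12 cultured CPCs, with 1 line a cell, circles for the 5 low cells and triangles for the 7 high cells. The ranges overlap at 10000 counts (3544 to 3624 and 3355 to 3905 genes) and are 1100.5 genes apart at 3453708 counts.

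Genes with few counts made up much of the difference. Genes with 1 to 9 counts at equal depth numbered 829 to 978 in the low cells and 1324 to 1941 in the high cells. When 10 counts were asked for, the difference of medians was 915 genes. At 20 counts it was 598 and at 50 counts 503, and at these thresholds cell 3, with 8365 and 6442 genes, fell within or below the low range of 8309 to 8506 and 6785 to 6892 genes. The separation of the sets at higher thresholds thus did not hold for every cell.

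To place the difference on an abundance scale, genes were classed by their CPM, the counts of a gene per 1000000 counts of the cell, averaged over the 12 cells. The difference between the mean gene numbers of the sets, 9986 and 11564 at equal depth, is a sum over 14462 genes of the difference in the chance of detecting each gene. Genes under 10 CPM were 41.3% of the genes and gave 81.1% of the difference. Genes at 30 CPM or more, 5557 in number, gave 4.58%. A gene enters a low class partly because cells miss it, so the classes are not independent of detection.

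Detection rose with abundance in both sets, and the sets drew together from class to class. For the 2920 genes under 1 CPM, the share detected was 6.28 to 10.9% in the low cells and 17.3 to 34.9% in the high cells, and this class gave 479.7 genes of the difference. For the 1126 genes of 1 to 3 CPM the shares were 30.5 to 39.0% and 55.4 to 70.5%. For the 1924 genes of 3 to 10 CPM they were 63.8 to 67.1% and 82.9 to 91.7%, which gave 455.2 genes. For 2935 genes of 10 to 30 CPM they were 87.2 to 91.5% and 95.5 to 98.0%. The ranges stayed apart even at 100 CPM or more, where low cells detected 99.3 to 99.5% of 2189 genes and high cells 99.7 to 99.9%, although that class gave 8.43 genes. In the plot by abundance the low and high cells stand furthest apart between 1 and 10 CPM.

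**Figure D2:**
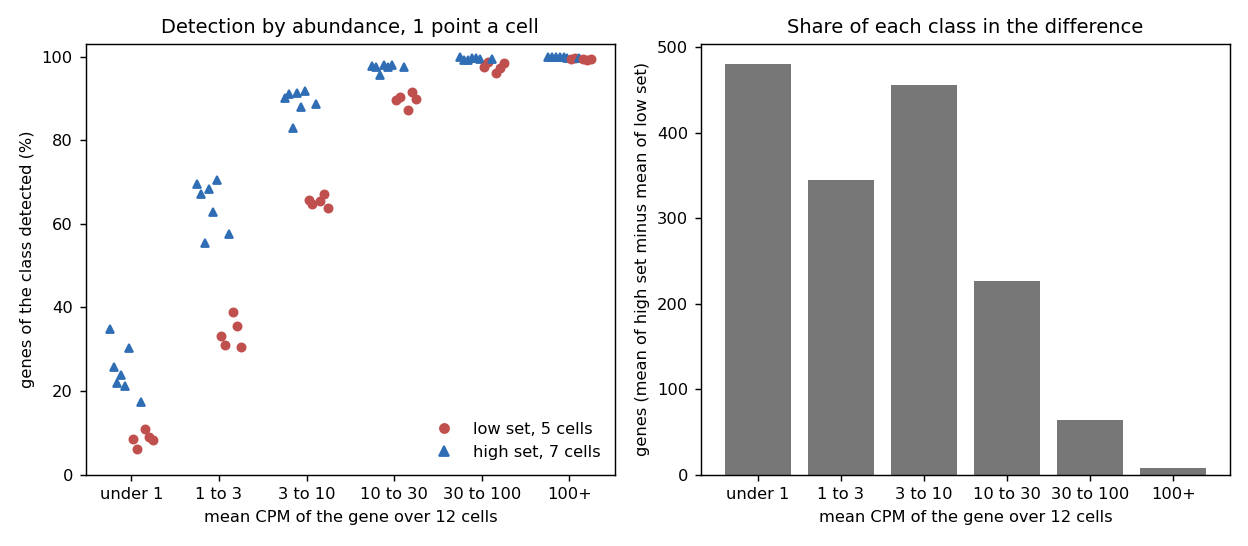
Left, percent of the genes of each abundance class detected at equal depth in each of 12 cells (circles, low set; triangles, high set); right, genes that each class adds to the difference between the set means. The class of 1 to 3 CPM shows 30.5 to 39.0% in low cells and 55.4 to 70.5% in high cells, while the class of 100 CPM or more adds 8.43 genes.

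Summed levels of the low classes were smaller in the low cells apart from cell 10. Over the genes of 1 to 3 CPM, the low cells held 1237 to 1543 CPM without cell 10, which held 3196 CPM, and the high cells 1864 to 2683 CPM. Over the genes of 3 to 10 CPM, the low cells held 8959 to 10072 CPM without cell 10, which held 14792 CPM, and the high cells 10689 to 13799 CPM. At 10 to 30 CPM the ranges were 48900 to 62944 and 49236 to 63589 CPM, and they overlapped through cell 10 and cell 3. Without these cells they were 48900 to 51404 and 53227 to 63589 CPM.

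The level of a gene where it was counted rests on detection, which also parted the sets, and its direction changed with the class. The median over counted genes of 1 to 3 CPM was 2.27 to 5.07 CPM in the low cells and 1.98 to 2.39 CPM in the high cells. At 10 to 30 CPM it was 15.6 to 16.7 CPM, with a median of 15.8, and 12.7 to 19.1 CPM, with a median of 17.5. At 30 to 100 CPM the medians over cells were 47.9 CPM in the low set and 50.5 CPM in the high set.

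Of the genes with a count in any cell, 1319 were missing from 1 low cell, 900 from 2, 922 from 3, 1405 from 4 and 2088 from all 5. Of the 14462 genes, 7680 were counted in all 12 cells and 9501 in every high cell. The 1821 genes counted in every high cell but not in every low cell comprised 1039 genes missing from 1 low cell, 476 from 2, 210 from 3, 78 from 4 and 18 from all 5. In the other direction, 148 genes were in every low cell and missing from 1 or more high cells. Cells 7, 8, 10, 11 and 12 each lacked 169, 204, 320, 129 and 217 genes that all 11 other cells had, against 2 to 46 in a high cell. Conversely, 21 to 112 genes were found in a single low cell only and 82 to 264 in a single high cell only. Cell 10 was highest among the low cells on both counts.

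No low cell had any of 2088 genes that were counted in the high set. Of these, 1059 were counted in 1 high cell only and 1029 in 2 or more. The reverse held for 281 genes, of which 26 were in 2 or more low cells. Summed over genes at equal depth, 6912 genes were detected more often in the high set and added 1716 genes, and 1255 were detected more often in the low set and took away 138.

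Of the 14462 genes, 18 were counted in every high cell and in no low cell, which is 0.124%, and 0 genes, or 0%, showed the converse. Since the rule selected the cells on how many genes they had, nothing is read from the direction of these counts. With counts drawn once to equal depth the numbers were 19 and 0. Leaving out 1 cell at a time gave 20 to 41 and 0 to 1 genes, and 58 and 0 without cells 3 and 10. A count of 0 allows 3 counts, or 0.527 to 0.571 CPM in the low cells, and this covers counting error only because the reads carry no molecular identifiers.

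Mgam (chr6:40628831-40769123, mm10), which encodes an enzyme of starch digestion, had 11, 1.73, 113, 45.8, 11.3 and 1.59 CPM in cells 1 to 6 and 5.87 CPM in cell 9. Plcg2 (chr8:117498291-117635142), a phospholipase of immune receptor signalling, had 7.53, 21.5, 25.3, 9.35, 9.75 and 8.24 CPM in cells 1 to 6 and 39.2 CPM in cell 9. Cacna1a (chr8:84388440-84640246), the pore of a neuronal calcium channel, stayed between 1.05 and 3.59 CPM in the 7 cells. Mgam, Plcg2 and Cacna1a were at 0 counts in cells 7, 8, 10, 11 and 12. Mgam spread widely over the high cells and rested most on cells 3 and 4, whereas Cacna1a was low and even.

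Other genes of this kind had varied roles. Zfp979, a zinc finger gene, ran from 2.03 to 31.6 CPM, with the lowest value in cell 1 and the highest in cell 6. Gdnf, a neurotrophic growth factor, ran from 1.33 to 11.1 CPM and Fgfr3, a receptor for fibroblast growth factors, from 0.247 to 5.24 CPM. Cbx2, a Polycomb protein, reached 14.3 CPM in cell 9 but had 1 count each in cells 1 and 3. Emb, Dffb, Meiob, Enpp6, Trim7, Dpf1, Gm14403 and 1700029J07Rik were at 32.1 CPM or less in each high cell. The remaining members, Engase, Casc1 and Hist1h4c, which are named to complete the list after their values were seen, lay at 5.80 CPM or less and had a single count in 2 or more high cells. A single count thus decided membership for several of the 18 genes.

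The promoters of these genes ranged widely in CG pairs. Of the 18 genes, 11 matched 1 promoter in the RefSeq table for GRCm38.p6, which gives 250 bases before and 50 after a start. The number of CG pairs, which read the same on both strands, was 4 to 39 with a median of 20, and the median over 8796 counted genes was also 20. The promoters with the fewest and the most pairs are printed to show this range, with each CG pair in capitals. Enpp6 lies at chr8:46986637-46986936 and Dpf1 at chr7:29303755-29304054, both on the plus strand.
Enpp6: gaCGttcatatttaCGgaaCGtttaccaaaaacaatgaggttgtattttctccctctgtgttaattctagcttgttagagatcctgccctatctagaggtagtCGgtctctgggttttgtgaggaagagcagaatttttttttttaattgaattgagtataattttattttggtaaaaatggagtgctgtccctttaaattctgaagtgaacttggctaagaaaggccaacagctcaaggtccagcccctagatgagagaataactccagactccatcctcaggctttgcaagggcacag
Dpf1: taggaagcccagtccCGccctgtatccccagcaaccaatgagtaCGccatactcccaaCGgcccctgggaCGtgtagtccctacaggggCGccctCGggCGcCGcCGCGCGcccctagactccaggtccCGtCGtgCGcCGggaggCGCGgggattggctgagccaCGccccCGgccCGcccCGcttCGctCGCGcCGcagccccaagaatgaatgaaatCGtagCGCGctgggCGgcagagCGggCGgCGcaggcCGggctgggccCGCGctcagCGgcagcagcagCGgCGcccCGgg
Of all 22862 promoters in the table, 93.8% held at least 1 CG pair, 39.7% held 4 or fewer and 18.0% held 25 or more.

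Promoters with few CG pairs went with lower detection in both sets. At 3 to 10 CPM, genes with 0 to 4 pairs were detected in 47.1 to 54.4% of cases in the low cells and 66.4 to 81.8% in the high cells. With 25 or more pairs the shares were 64.1 to 74.1% and 84.3 to 95.5%. The distance between the set means was 25.8 points in the first of these bins and 22.5 points in the last. At 10 to 30 CPM it was 11.4 and 6.23 points, and cell 3 of the high set detected 97.1% in each of the 2 bins. The bins with few pairs were also less abundant. Their median was 5.56 CPM against 6.26 CPM with 25 or more pairs at 3 to 10 CPM, and 16.6 against 18.9 CPM at 10 to 30 CPM.

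Functions were described with 46 gene lists built from gene symbols and textbook membership. The 46 include the actin list described below, which was drawn up after values were seen. They also include symbol series that name no function, such as the Tmem, Gm and Rik genes, and a list of small RNA host genes with 1 gene. At equal depth 15 lists were more fully detected in every high cell than in any low cell and 0 lists showed the converse. When 10 counts were asked for, 6 lists did so. Of the 46 lists, 45 had the higher share in the high set and 1 was level, while all genes together were at 69.0 and 80%, a gap of 10.9 points. Lists of cell type markers are not among the 46, and of these the endothelial and fibroblast markers had a gap of -2.02 and -1.10 points. The haematopoietic, cardiomyocyte and mural markers, with 8, 3 and 9 counted genes, had a gap of 25.7, 23.2 and 10.2 points. Genes in no list, 10290 in number, gave 67.7% of the difference and were 71.2% of the genes. What differed between lists was the size of the gap.

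The basic machinery of the cell was detected almost fully in both sets. All 77 mitochondrial ribosomal proteins, which translate the messages of the mitochondrial genome, were detected in all 12 cells. Cytosolic ribosomal proteins were at 98.1% in the low set and 98.8% in the high set, proteasome subunits at 98.8 and 99.7%, and splicing factors at 98.9 and 100%. These lists had medians of 72.3 to 416 CPM. The tRNA synthetases, at 93.7 and 99.2%, and the nuclear pore proteins, at 86.6 and 93.6%, had wider gaps. Nup107, a scaffold protein of the pore, was at 0 counts in cells 7 and 10, at 109, 8.48 and 133 CPM in cells 8, 11 and 12, and between 11.1 and 186 CPM in the high cells. A gene of this abundance was therefore missing from 2 low cells.

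Zinc finger genes formed the largest single functional block of the difference among the lists named for a function. This list held 417 genes with symbols of the Zfp, Zbtb, Zscan or Zkscan series, most of which encode C2H2 zinc finger proteins that bind DNA and many of which silence retroelements. The low cells detected 255, 258, 288, 281 and 243 of them in cells 7, 8, 10, 11 and 12. The high cells detected 337, 364, 328, 366, 369 and 377 in cells 1 to 6 and 367 in cell 9. No low cell reached the lowest high cell, and the list gave 93.5 genes or 5.92% of the difference while being 2.88% of the genes. The gap of 22.4 points was 17.3 points when 10 counts were asked for, against 5.91 points for all genes. Summed CPM of the list overlapped, at 4323 to 6757 in the low cells and 4773 to 8760 in the high cells.

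In each class under 30 CPM the zinc finger genes had the wider gap between set means, and at 30 to 100 CPM the gaps were 1.92 and 1.89 points. At 3 to 10 CPM, 152 zinc finger genes were detected at 62.5% in the low set and 92.4% in the high set, against 65.6 and 88.7% for 1772 other genes of that class. At 10 to 30 CPM the shares were 86.5 and 99.0% for 110 zinc finger genes and 89.8 and 97.3% for the others. The low-cell ranges of the zinc finger genes and the other genes overlapped in both classes. Zfp763 was at 0 counts in the 5 low cells and in cell 1 and between 0.240 and 5.45 CPM in the other 6 high cells. Zfp217 had 2 counts in cell 11, none in the other low cells, and 1 to 41 counts in the high cells. These are genes at the edge of detection in the high cells too.

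Cilium genes were parted between the sets as well. The cilium is an antenna of the resting cell, built by intraflagellar transport (IFT) particles and served by the BBSome coat. Of 51 genes, 42, 39, 39, 41 and 39 were detected in cells 7, 8, 10, 11 and 12, and 47 to 50 in the high cells. The gap was 17.0 points, against 10.9 points for all genes, which were apart too, at 68.7 to 69.8% and 77.4 to 82.6%. When 10 counts were asked for, the gap was 14.3 points, against 5.91 points for all genes. The list gave 0.55% of the difference and was 0.35% of the genes. Summed CPM was 714 to 1193 in the low cells and 863 to 1276 in the high cells. Intu, a planar polarity protein needed for cilium assembly, had 1 count in cell 8, none in the other low cells and 1.06 to 13.0 CPM in the high cells. Bbs2, a BBSome subunit, had 3 counts in cell 12, none in the other low cells and 2.32 to 10.7 CPM in the high cells. Bbs10 was at 0 counts in the 5 low cells and in cells 1 and 5.

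Genes of DNA repair and the centrosome showed gaps of 18.2 and 20.7 points, against 10.9 points for all genes, that not every cell shared. When 10 counts were asked for, the gaps were 16.7 and 20.4 points, against 5.91 points for all genes. Of 68 repair genes, 39, 57, 45, 48 and 56 were detected in cells 7, 8, 10, 11 and 12 and 61 to 67 in the high cells apart from cell 3, which had 44. Polh, the polymerase that copies past damage by ultraviolet light, had 0 counts in cells 7, 10 and 11, 3.45 CPM in cell 8 and 32.3 CPM in cell 12, and 3.69 to 39.4 CPM in the high cells. Of 35 Cep genes of the centrosome, the low cells detected 22, 32, 19, 28 and 31 and the high cells 30 to 35. Cells 8 and 12 lay within the high range on the Cep list, and cell 3 within the low range on repair.

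Cell cycle genes also varied within the sets. Of 42 S phase genes, cells 7, 8, 10, 11 and 12 detected 29, 41, 24, 29 and 42, cell 3 detected 35 and the other high cells 38 to 42. Of 52 G2/M genes the low cells detected 35, 51, 40, 31 and 45, cell 3 detected 44 and the other high cells 50 to 52. Summed G2/M levels were 1042, 1320 and 968 CPM in cells 7, 10 and 11, 9656 and 2025 CPM in cells 8 and 12, and 1024 to 17796 CPM in the high set. Ccne2, a cyclin of the G1 to S transition, had 0 counts in cells 7, 8 and 10, 2 counts in cell 11 and 56.2 CPM in cell 12, and 0.791 to 179 CPM in the high cells. Gas2l3, a linker of actin and microtubules in dividing cells, had 11.8 CPM in cell 7, none in the other low cells and 2.37 to 45.3 CPM in the high cells. Both lists overlapped between the sets. S phase genes gave 0.44% of the difference and were 0.29% of the genes, and G2/M genes gave 0.64% and were 0.36%. Repair genes gave 0.79% and were 0.47%, and centrosome genes gave 0.46% and were 0.24%. The part of the cell cycle in the number of genes was not tested.

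Surface and signalling genes were detected less fully in each low cell than in any high cell. Of 118 G protein-coupled receptors, 37 to 43 were detected in the low cells and 52 to 71 in the high cells. Of 81 ion channels the numbers were 20 to 26 and 30 to 44, and of 263 solute carriers 150 to 166 and 179 to 205. Slc2a6, a sugar transporter of the lysosome, was at 0 counts in the 5 low cells and in cell 1, and at 66.7 CPM in cell 3. Summed CPM of the solute carriers overlapped, at 9053 to 10431 in the low cells and 8155 to 10436 in the high cells. For the receptors it was 1362 to 2975 CPM in the low cells and 869 to 1668 CPM in the high cells. The receptor medians, 2169 and 1140 CPM, were thus higher in the low set, where fewer receptors were detected. For the channels the ranges overlapped, with medians of 543 CPM in the low set and 603 CPM in the high set. The gaps were 17.4 points for the receptors, 16.6 points for the channels and 11.8 points for the solute carriers, against 10.9 points for all genes. When 10 counts were asked for, they were 4.17, 4.76 and 5.25 points, all under the 5.91 points of all genes.

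Ligases and membrane traffic had gaps near or under the 10.9 points of all genes, at 11.3 and 7.21 points. Of 240 genes of ubiquitin ligase families, which mark proteins for turnover, 163 to 179 were detected in the low cells and 191 to 204 in the high cells. Of 136 genes of membrane tethering and sorting the numbers were 115 to 122 and 126 to 131. Trim29 was at 0 counts in the 5 low cells and cell 9, and at 0.240 to 6.08 CPM in the other high cells. Tbc1d31 had 0 counts in cells 7, 10 and 11 and 2.90 to 32.2 CPM in the high cells.

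Genes best known from neurons and sensory cells were also counted more often in the high set. Of 36 synaptic genes, 8 to 16 were detected in the low cells and 16 to 21 in the high cells. Their gap of 21.8 points was 4.92 points when 10 counts were asked for, under the 5.91 points of all genes. Syt5, a sensor of calcium in vesicle release, was at 0 counts in the low cells and cell 3 and at 0.797 to 5.45 CPM in the other high cells. Of 66 olfactory and vomeronasal receptor genes with a count in any cell, the low cells had 1 to 5 and the high cells 4 to 21, a gap of 12.1 points that was near the 10.9 points of all genes. Their summed level was 0.376 to 8.30 CPM in the low cells and 11.1 to 349 CPM in the high cells, and the 349 CPM of cell 2 rested on Vmn2r79, at 333 CPM. These receptors have many close copies, so their counts are uncertain.

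Summed levels of the markers of other cell types overlapped between the sets, for fibroblast markers through cell 10 alone. Of 8 haematopoietic markers with a count in any cell, 2 to 4 were counted in the low cells and 3 to 6 in the high cells, at summed levels of 2.99 to 35.6 and 18.1 to 160 CPM. Itgam and Laptm5 were at 0 counts in all 12 cells. Endothelial markers summed to 9810 CPM in cell 10, where 8 of 10 were counted, to 3.97 to 30.2 CPM in the other low cells and to 0.629 to 58.5 CPM in the high cells. Mural markers, of smooth muscle and pericytes, summed to 3737 CPM in cell 11, to 40.9 to 172 CPM in the other low cells and to 13.8 to 145 CPM in the high cells. Fibroblast markers summed to 219 CPM in cell 10 and to 2080, 3003, 2312 and 6764 CPM in cells 7, 8, 11 and 12, all above the 709 to 1953 CPM of the high cells. Of 10 cardiomyocyte markers, Tnnt2, Tnni3 and Myl2 had counts in any cell, at summed levels of 0 to 86.6 CPM in the low set and 0 to 9.55 CPM in the high set, and Myh6, Myh7 and Actc1 were at 0 in all 12 cells. The part of these markers in the number of genes was not tested.

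**Figure D3:**
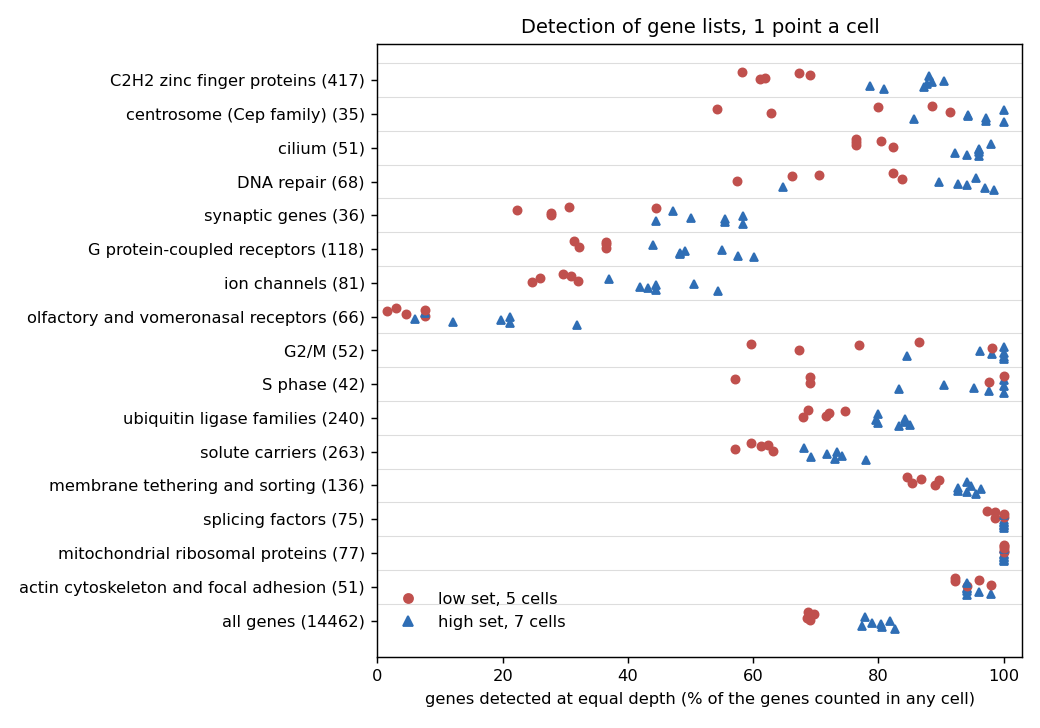
Percent of the counted genes of each list detected at equal depth (horizontal axis) in each of 12 cells, with circles for the 5 low cells and triangles for the 7 high cells and the number of genes in brackets. Zinc finger, cilium and ion channel genes show no overlap between the sets, while mitochondrial ribosomal proteins lie at 100% in all 12 cells.

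Transcripts poor in G and C were detected less often in the low cells. GC content and length were taken from the longest annotated transcript of the gene, which need not be the one expressed. At 3 to 10 CPM, genes of 44% GC or less were detected in 55.2 to 61.5% of cases in the low cells and 83.2 to 92.5% in the high cells. At over 56% GC the shares were 66.7 to 73.9% and 85.4 to 92.6%. From the first of these bins to the last, detection rose by 17.5, 13.6, 10.3, 9.30 and 11.5 points in cells 7, 8, 10, 11 and 12. In the high cells the change lay between -1.0 and 3.55 points, with a median of 0.68. The bins had similar abundance, with medians of 5.7 to 6.3 CPM.

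At 10 to 30 CPM the rise was 4.32 to 9.23 points in the low cells and 0.87 to 1.75 points in the high cells. The high cells detected 95.0 to 97.4% of the first bin there, which left little room for a rise. Zinc finger genes had a median GC content of 44.7%, against 49.7% for all counted genes. By transcript length at 3 to 10 CPM, the low set detected 71.2, 63.4, 63.1, 65.7 and 67.5% in 5 bins from the shortest to the longest. The gap between the sets was 15.7 points in the shortest bin and 25.2 points in the longest, while by GC content it was 30.9 points in the first bin and 19.4 points in the last. Whether the GC and length patterns arose in the cells or during amplification was not tested.

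**Figure D4:**
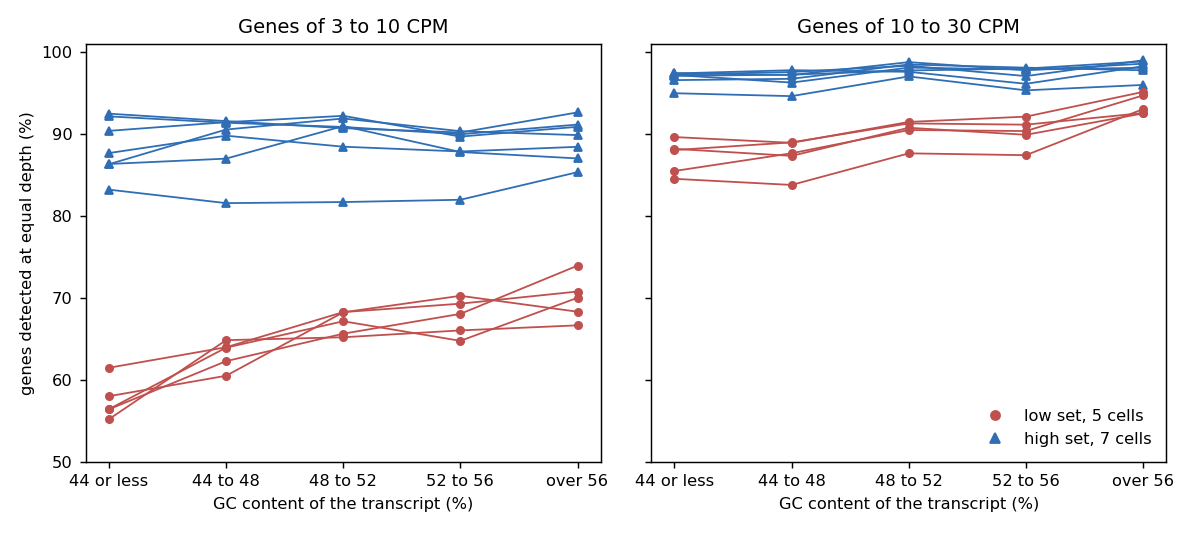
Percent of genes detected at equal depth (vertical axis, from 50%) by GC content of the transcript (horizontal axis) in each of 12 cells, for genes of 3 to 10 CPM (left) and 10 to 30 CPM (right), with circles for low and triangles for high cells. At 3 to 10 CPM the 5 low lines rise by 9.30 to 17.5 points from the first bin to the last, and the 7 high lines change by -1.0 to 3.55 points.

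Levels were compared next, since a gene counted in all cells can still differ between the sets. Of 11542 genes that averaged 1 CPM or more, 80 were higher in every high cell than in any low cell (0.693%) and 29 were higher in every low cell than in any high cell (0.251%). Scaling by the median ratio of genes counted in all cells gave 72 and 39 genes, of which 68 and 24 were shared with the CPM result. Leaving out 1 cell at a time gave 94 to 186 and 34 to 115 genes. The 80 include genes at 0 counts in every low cell, such as Mgam and Plcg2, which passed the filter on the mean only through the high set. Among genes of 10 CPM or more with counts in all 12 cells, 28 were higher in every high cell and 26 in every low cell. The genes under this filter are a part of the 7680 genes counted in all 12 cells. The size of that part is not given here, so no share is stated. These 28 and 26 genes had a median abundance of 36.8 and 61.8 CPM and a median GC content of 45.9 and 52.8%. All 11542 genes had 27.9 CPM and 49.4%, but they include genes under 10 CPM and genes missing from some cells. The filter by itself raises the abundance, so nothing is read from that difference. Zinc finger genes were 2 of the 28, none of the 26, 7 of the 80, none of the 29 and 368 of all 11542 genes compared. Of the 368, 203 were under 10 CPM, so they are a background for the 80 and the 29 only.

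Of the genes of 10 CPM or more that were higher in every high cell and counted in all 12, Slc5a3, a transporter of myo-inositol (chr16:92058322-92087473), had the widest gap. It had 11, 15.1, 9.58, 8.84 and 7.21 CPM in cells 7, 8, 10, 11 and 12, and 67.5, 19.3, 29.0, 19.4, 64.9 and 69.6 CPM in cells 1 to 6 and 29.6 CPM in cell 9. Ptgr1 (chr4:58965439-58987119), which reduces prostaglandins and reactive aldehydes, had 30.8, 57.1, 52, 72.2 and 54.3 CPM in the low cells and 90.4 to 204 CPM in the high cells. The median was 2.68 times higher in the high set for Ptgr1 and 3.09 times for Slc5a3, and the nearest cells of the sets were closer than that, at 15.1 and 19.3 CPM for Slc5a3.

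Prps2, which makes the ribose phosphate for nucleotides, had 5.51 to 35.8 CPM in the low cells and 42.2 to 88.9 CPM in the high cells. Cul7, a scaffold of ubiquitin ligases, had 2.07 to 5.82 and 7.12 to 43.8 CPM. Wdr35, an IFT subunit of the cilium, had 5.82 to 17.9 and 21.3 to 55.5 CPM. Wdr35 thus separated the sets by level, while the cilium genes Intu and Bbs2 did so by near absence. Snap29, a SNARE protein of membrane fusion, had 10.5 to 22.8 and 27.2 to 45.6 CPM. Immp1l, a peptidase of the inner mitochondrial membrane, had 33.6 to 58.1 and 65.8 to 110 CPM. Abhd14a, Fam195a, Tmem230, Zfp874b and Tmem38a completed the 12 widest gaps, with medians 1.61 to 3.09 times higher in the high set.

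Prag1 (chr8:36094828-36147787), a pseudokinase that acts on the actin cytoskeleton, had the widest gap in the other direction under the same filter. It had 37.8, 26.7, 61.0, 22.4 and 34.4 CPM in cells 7, 8, 10, 11 and 12 and 2.61 to 8.95 CPM in the high cells, so that the median was 6.07 times higher in the low set. Serpinh1 (chr7:99345376-99353239), the chaperone of collagen, had 800, 917, 1542, 1299 and 765 CPM in the low cells and 104 to 557 CPM in the high cells. Dag1, dystroglycan, which links the matrix to the cytoskeleton, had 88.4 to 139 and 29.1 to 63.7 CPM. Tpm1, a tropomyosin of actin filaments, had 518 to 950 and 180 to 438 CPM. For each of these genes every low cell stood above every high cell, although the spread within a set was wide.

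Fads3, of the fatty acid desaturase family, had 286 to 552 CPM in the low cells and 128 to 200 CPM in the high cells. Stk25, a kinase at the Golgi, had 69.0 to 83.4 and 13.2 to 51.5 CPM. Chpf2, which extends chondroitin chains, had 16.2 to 58.6 and 2.19 to 12.9 CPM. Rnf10, Galnt1, Usb1, Pcgf3 and Klhl17 completed the 12 widest gaps, with medians 1.34 to 1.94 times higher in the low set. Usb1 and Pcgf3 overlapped between the sets under the median ratio scaling. Il6, an inflammatory cytokine, is outside these 12 and is named after its values were seen. It had 180, 106, 560, 300 and 365 CPM in the low cells and 2.10 to 102 CPM in the high cells.

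**Figure D5:**
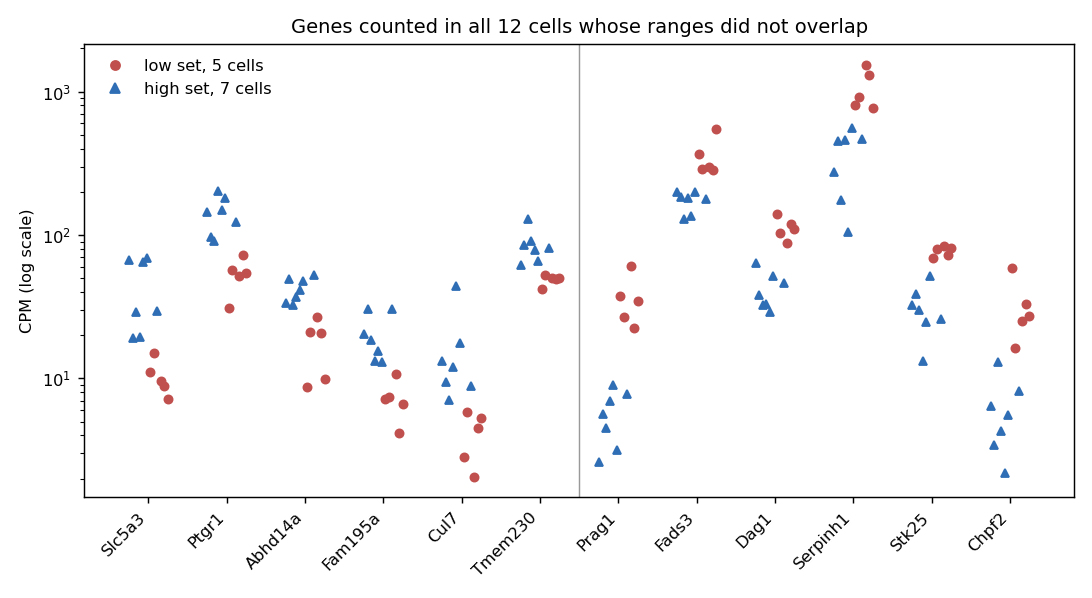
CPM (vertical axis, log scale) of 12 genes counted in all 12 cells whose ranges did not overlap, with 1 point a cell, circles for the 5 low and triangles for the 7 high cells. The 6 genes on the left are higher in every high cell, such as Ptgr1 (30.8 to 72.2 and 90.4 to 204 CPM), and the 6 on the right are higher in every low cell, such as Prag1 (22.4 to 61.0 and 2.61 to 8.95 CPM).

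A list of 51 genes of the actin cytoskeleton and focal adhesions, the sites where integrins tie actin to the matrix, was drawn up after these values were seen and supports nothing by itself. Its detection was like in both sets, at 94.4 and 94.9%. Of the 51 genes, 40 (78.4%) had the higher median CPM in the low set, against 37.5% of all genes of 1 CPM or more and 48.1% of genes of 100 CPM or more. The median difference, low minus high set, was 0.39 in log2(CPM + 1), against -0.18 for genes of 1 CPM or more and -0.02 for genes of 100 CPM or more. Summed over the list, cells 7, 8, 10, 11 and 12 had 33197, 48473, 27704, 48420 and 24857 CPM and the high cells 20498 to 31692 CPM. The summed ranges overlapped, since cells 10 and 12 lay within the high range.

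With Tpm1, 5 of 48 members that averaged 1 CPM or more were higher in every low cell, against 0.251% of all genes compared, but the list was drawn from these values, and all genes of this list were named after their values were seen. Vcl, vinculin, had 64.7, 53.5, 67.0, 110 and 110 CPM in the low cells and 11.1 to 50.4 CPM in the high cells. Actn1, an actin crosslinker, had 258 to 418 and 114 to 244 CPM. Fermt2, an activator of integrins, had 185 to 323 and 14 to 184 CPM, so that the nearest cells were almost level. Arpc2, a subunit of the complex that branches actin filaments, had 1192 to 1746 and 658 to 1155 CPM, and its ranges overlapped under the median ratio scaling. Actb differed little, with medians of 3465 CPM in the low set and 3049 CPM in the high set, and Tpm2 had the higher median in the high set, at 105 CPM against 79.9 CPM.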

How the data were processed

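Messenger RNA of 12 single cultured CPCs was sequenced as paired reads from Smart-Seq v4 cDNA and Nextera XT libraries. The authors used STAR (version 2.5.2b in the submitters' processing notes) for alignment to mm10 and kept reads with a unique position. What the authors deposited is a table of raw counts, 1 row a gene and 1 column a cell, which was not normalized. The counting program, annotation and strand rule are not given in the sources used here, so overlapping genes and close copies can lose or gain reads.

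Columns were matched to cells by name. Depth ran from 3453708 to 5690184 counts per cell. CPM are counts per 1000000 counts of a cell. Detection at equal depth was the exact hypergeometric chance of at least 1 count in 3453708 counts drawn without replacement, and 1 seeded draw to that depth served as an alternative where ranges were compared. Differences in detection were summed over genes by abundance class and list. Ranges were compared for genes that averaged 1 CPM or more, and log2 values used a pseudocount of 1. Positions, and the length and GC content of the longest annotated transcript, came from GENCODE vM21, on the same build, for 98.2% of counted genes. Promoters came from RefSeq. Coordinates count from 1.

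Members and gene lists were chosen with earlier results of these data known. Named genes were the 15 with the highest mean CPM in the set among genes counted in every cell of a set and no cell of the other, the 12 widest gaps in each direction among genes of 10 CPM or more counted in all cells, the 3 genes with the largest detection gap in a list, marker and cell cycle genes, and genes that decide a cell standing apart. The other 3 genes of the first kind, Il6 and the actin genes are named outside this rule. With 1 group and cells chosen by the outcome, no test was made. No doublet caller was run, since cells were picked singly. Alternatives covered thresholds, scaling, filters, depth and leaving out single cells. The steps were tested on simulated data. Software was Python 3.11.15 with pandas 2.3.3, numpy 2.4.6, matplotlib 3.10.9 and scipy 1.17.1.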

Additional observations from a re-analysis of the deposited data

How the results depend on the processing

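The difference in median detected genes, 1635 as deposited, was 1241 and 857 genes at thresholds of 5 and 10 counts, 915 at 10 counts and equal depth, and 1244, 455 and 170 at 1, 10 and 50 CPM or more. It was 1653 at equal depth and 1635 without mitochondrially encoded genes. The share of the difference from genes under 10 CPM, 81.1%, was 78.1% with abundance taken over the high set, 88.3% with median CPM, 57.0% at 10 counts and 84.6% without cells 3 and 10. The share from genes under 1 CPM, 30.4%, was 50.5% with median CPM and 3.40% at 10 counts. The cause was not tested.

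Genes in every high and no low cell rose from 18 to 58 without cells 3 and 10, genes higher in every high cell from 80 to 233 and genes higher in every low cell from 29 to 79. Fewer cells in a set make separate ranges easier by construction. A mean of at least 10 CPM, which leaves fewer genes, gave 41 higher in every high cell. Lists more fully detected in every high cell fell from 15 to 6 at 10 counts, and the gap of cytosolic ribosomal proteins turned from 0.71 to -0.23 points.

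Leaving out 1 cell at a time gave a difference of 1546.5 to 1645.5 genes, shares of 80.03 to 84.6% under 10 CPM and 29.1 to 33.3% under 1 CPM, and 20 to 41 and 0 to 1 genes counted in 1 set only. It gave 94 to 186 genes higher in every high cell and 34 to 115 higher in every low cell. Genes higher in every high cell numbered 142, 155, 186, 133, 141, 174 and 131 without cells 3, 7, 8, 9, 10, 11 and 12, and genes higher in every low cell 54, 115, 59, 66, 45 and 57 without cells 6, 8, 9, 10, 11 and 12. Genes in every high and no low cell numbered 33, 28, 36, 29, 35, 41 and 28 without cells 3, 7, 8, 9, 10, 11 and 12. No paired analysis was possible because the cells form 1 group and no test was made.

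The sets hold 5 and 7 cells of 1 culture design, reads are not independent molecules, and depth ran opposite to the number of genes. A count of 0 allows up to 3 counts in the total of a cell.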

Other observations

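Detection of genes of 3 to 10 CPM was also compared by chromosome, for chromosomes with at least 40 such genes. Over all genes of this class the gap between the sets was 23.7 points. The smallest gap was 19.0 points, on chromosome 11, with 70.6% in the low set and 89.7% in the high set. The largest was 32.1 points, on chromosome 13, with 54.8 and 86.9%. Chromosome 13 held 15 zinc finger genes among 78, and without them the shares were 54.2 and 86.0%. Chromosome 7 held the most zinc finger genes, 45 of 168, and had a gap of 24.3 points. No test was made of these values.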
